A study of Homo sapiens with 30 samples.

Results

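The genes described here are 35 genes of G2 phase and mitosis, listed by symbol from textbook knowledge of the cell cycle. All 35 were found among the 26475 rows of the run-on count table. The study asked how hNABP2 (also called hSSB1), a single-stranded DNA binding protein, takes part in transcription in HT1080, a human fibrosarcoma cell line, at passages 10 to 15 and with no specific treatment named. Global run-on sequencing (GRO-seq), in which nuclei extend nascent RNA with a labelled nucleotide that is then pulled down, was done in WT cells and in cells labelled hNABP2 KO and hNABP1 KO, each with NTP and with no NTP, in 3 repeats of each of these 6 groups. Chromatin immunoprecipitation (ChIP) with an anti-hNABP2 antibody was done in WT cells in 2 repeats, and DNA:RNA hybrid immunoprecipitation (DRIP) in WT and hNABP2 KO cells in 2 repeats each. The labels do not state the kind of knockout, the number of clones or whether the repeats came from separate cultures, so p-values measure only the spread between these libraries. The IgG libraries and the RNase H treated DRIP libraries were not analysed here.

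Entry into mitosis is driven by CDK1 bound to A and B cyclins, switched on by CDC25 phosphatases and by polo-like and Aurora kinases. The spindle checkpoint then holds CDC20 and the anaphase promoting complex back until every kinetochore is attached, after which securin is degraded, sister chromatids separate and the cell is cleaved. Most genes of this programme are repressed by the DREAM complex in resting cells and switched on late in the cycle by the MuvB complex with B-MYB and FOXM1, through a CHR element and CCAAT boxes that bind NF-Y near the start site. The samples are unsynchronized as far as the labels say, so fewer cells in G2 and mitosis and less nascent RNA per cell cannot be told apart.

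Depth bounds every run-on value. The 18 run-on libraries held 5272 to 164357 counts, and the 35 genes together held 1099, of which 77.5% lay in repeat 3, as did 82.6% of the counts of all genes. Over the 9 libraries with NTP the median gene of the set had 20 counts, against 10 for all genes, and 33 of the 35 reached 10 counts. NABP2, the gene for hNABP2, had 12 counts over the WT libraries with NTP, 22 over those labelled hNABP2 KO and 6 over those labelled hNABP1 KO. NABP1, the gene for hNABP1, had 20, 11 and 19 counts in the same groups. Neither count was lowest in the group labelled as its knockout, so they checked neither label, and hNABP2 KO and hNABP1 KO below mean the libraries so labelled. Of the marker lists, mesenchymal genes took 0.216% to 4.25% of a library with COL5A1, a fibrillar collagen, in all 18 libraries at 2806 counts, VIM next at 214 and THY1 at 5; epithelial genes took 0.0104% to 0.326%, mostly KRT8 and KRT18, with EPCAM at 2 counts in all; and leukocyte genes took at most 0.0623%. Of the 12 leukocyte genes CD68 had 52 counts, SPI1 35, CORO1A 34 and ITGAM 28 over all 18 libraries, as many as genes of the set, while PTPRC had 10, CD3E and MS4A1 1 each and LYZ 0.

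Promoters of the G2 and mitosis genes carried anti-hNABP2 peaks in repeat 1 and with few exceptions not in repeat 2. In repeat 1, 21 of the 35 genes had a peak annotated within 1 kb of a start, which is 60.0%, against 27.1% of all genes. Expressed genes had such peaks more often: among genes with 10 or more run-on counts with NTP the values were 63.6% of the set, 21 of 33, and 49.9% of all. At a −log10 q of 5 or more the count was 20 of 35, against 24.2%. In repeat 2 the count was 2 of 35, against 8.74% of all genes, and in both repeats it was also 2, against 7.46%. At the stricter q it was 1, MKI67, in repeat 2, against 3.70%, and in both, against 3.12%. The fold enrichment, p and q of each peak are the authors' own values, no source used here names the control that peaks were called against, and repeat 1 held 8981 promoter peaks against 2658 in repeat 2.

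The 2 genes with a promoter peak in both repeats were MKI67, which encodes the proliferation antigen Ki-67 that coats mitotic chromosomes, and CENPA, the histone H3 variant that marks centromeres. The MKI67 peak had a fold of 2.54 at chr10:128126207-128126381 in repeat 1 and 7.33 at chr10:128126100-128126395 in repeat 2. The CENPA peak had a fold of 2.32 at chr2:26786055-26786457 in repeat 1 and 6.43 at chr2:26786112-26786422 in repeat 2. In repeat 1 both lay below the median of all promoter peaks, 3.16, and in repeat 2 both lay above it, 5.87. CENPA had another repeat 1 peak annotated as a promoter peak at chr2:26764155-26764487, its summit at -21801 bases from the RefSeq start, and MKI67 a distal intergenic one with a fold of 3.47.

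Among genes with a peak in repeat 1 and none in repeat 2, PTTG1, which encodes securin, the inhibitor of separase, stood highest with a fold of 5.102. It was followed by PLK1, the polo-like kinase that drives mitotic entry, at 4.68, and ANLN, an actin-binding scaffold of the cleavage furrow, at 4.32. TTK, the checkpoint kinase also called MPS1, had 4.16, KIF11, the kinesin that pushes spindle poles apart, 4.03, and CDK1 3.84. At the low end were BUB3, a checkpoint protein that binds BUB1 and BUB1B, at 2.42, KIF23, a kinesin of the central spindle, at 2.48, and cyclin B1 (CCNB1) at 2.56. The 25 promoter peaks of the set in repeat 1 had a median fold of 3.01 and a median width of 253 bases, against 3.16 and 380 over all promoter peaks, so their height was ordinary for the list. Their median −log10 q was 9.60 against 12.8.

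**Figure D1:**
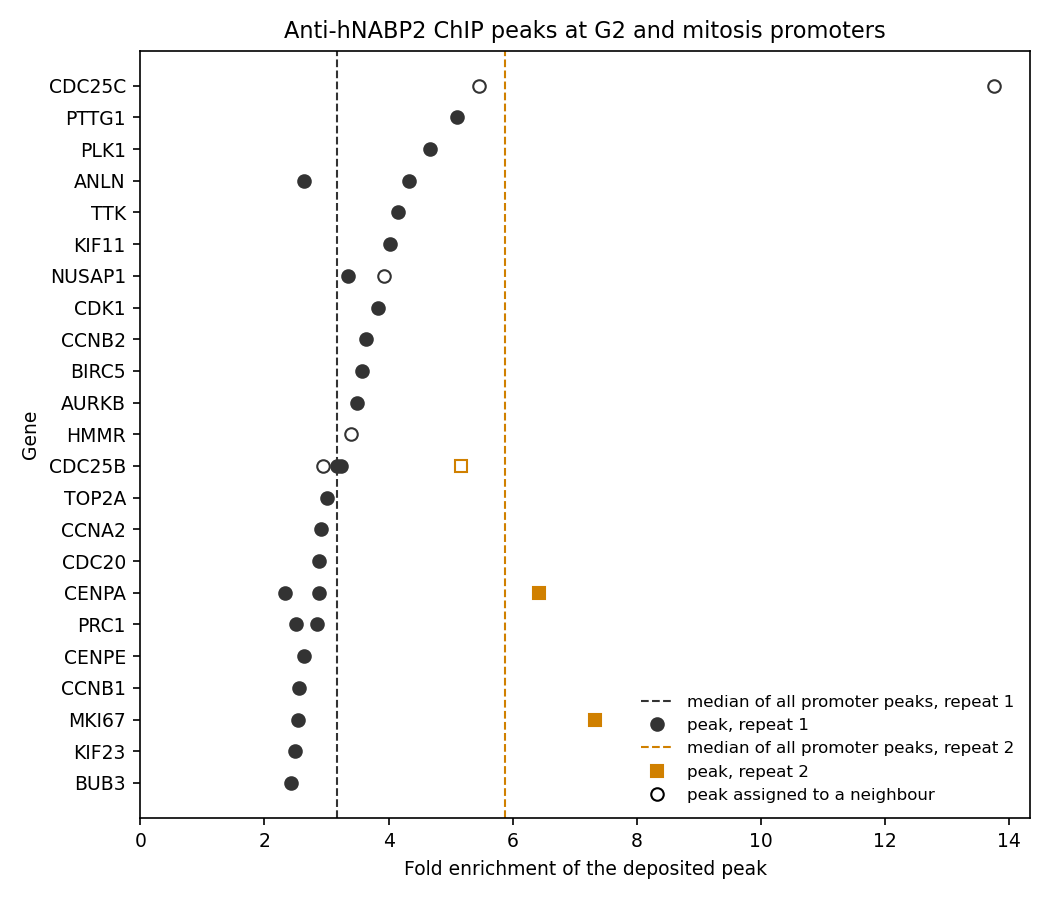
Fold enrichment (x axis) of each deposited anti-hNABP2 peak at the promoter of a G2 or mitosis gene (y axis), as circles for repeat 1 and squares for repeat 2, open where the peak was assigned to a neighbouring gene, with dashed lines at the medians of all promoter peaks, 3.16 and 5.87. The open circle of CDC25C at 13.8 stands far to the right, and the repeat 2 peaks belong to MKI67, CENPA and a neighbour of CDC25B.

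By role, peaks in repeat 1 were found at 5 of the 6 genes for cyclins, CDK1 and CDC25 phosphatases, at 3 of 5 mitotic kinases, at 3 of 6 checkpoint and anaphase genes, at 2 of 5 kinesins, at 2 of 3 centromere proteins, and at 6 of the 10 remaining genes. The 14 genes with none of their own were CDC25C, AURKA, NEK2, BUB1, BUB1B, MAD2L1, KIF20A, KIF2C, KIF4A, CENPF, TPX2, FOXM1, HMMR and ECT2. These 14 had a median of 17.5 run-on counts over the 9 libraries with NTP and the 21 genes with a peak a median of 20, with 10 to 50 counts in the latter. Of 21 repeat 1 summits within 1 kb of a RefSeq start, 17 lay after it and the median distance was 114 bases downstream. Over 6366 summits of all genes' promoter peaks, also within 1 kb of a RefSeq start, the median was 49 bases and 62.5% lay after the start.

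CDC25C, the phosphatase that activates CDK1 at mitotic onset, had no peak of its own, but peaks assigned to FAM53C lay near its start. The strongest peak near any gene of the set lay at chr5:138338171-138338638, across the upstream RefSeq start of CDC25C at 138338355. The authors assigned it to FAM53C, a gene read in the other direction whose RefSeq span starts at 138337557 and overlaps that of CDC25C. This peak had a fold of 13.8 and a −log10 q of 302, and ranked 12 by fold among the 8981 promoter peaks of repeat 1. A further FAM53C peak at chr5:138337711-138337982 had a fold of 5.45. In the authors' annotation the stronger peak lay 0 bases from a FAM53C start and the weaker -33 bases, so both lay at an annotated FAM53C start as well. Neither had a counterpart in repeat 2, and the counts of FAM53C over the libraries with NTP, 26, 15 and 16 in WT, hNABP2 KO and hNABP1 KO, did not tell which gene it belongs to.

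Assignment mattered for 3 further genes. HMMR, a spindle-associated hyaluronan receptor, had a peak given to NUDCD2 with its summit at -573 bases from the HMMR start. NUSAP1, a microtubule-binding protein of the spindle, had its own peak with a fold of 3.35 and another, at 3.92, given to OIP5. CDC25B, the phosphatase acting early in G2, had 2 peaks of its own in repeat 1, at 3.16 and 3.24, and one given to CENPB that was present in both repeats, with folds of 2.95 and 5.17. Counting any peak within 1 kb of a RefSeq start, whatever gene it was given to, 20 of the 29 genes with a RefSeq window had one in repeat 1, against 40.0% of all genes, and 3 of 29 in repeat 2, against 12.2%, and in both repeats, against 11.1%.

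Promoter windows from RefSeq (GRCh38.p14) run from 250 bases before to 50 bases after a start. They matched 29 of the 35 genes, with AURKA, BUB3, TTK, BIRC5, TPX2 and FOXM1 without one. Shown here are MKI67 and CENPA because their peaks recurred, and PTTG1 and PLK1 because they had the highest folds among the set's own peaks in repeat 1. The upstream and the internal start of CDC25C are shown because the strongest ChIP peak lay at the one. The strongest run-on peak and the DRIP peak described further on lay at the other. They are written 5′ to 3′ on the strand of the gene, and capitals mark the CCAAT box (CCAAT, or ATTGG on the other strand), the CHR (TTTGAA, or TTCAAA) and the GC box (GGGCGG, or CCGCCC). Motifs that share letters run together in capitals, as in MKI67 and PTTG1.
MKI67, minus strand, chr10:128126374-128126673: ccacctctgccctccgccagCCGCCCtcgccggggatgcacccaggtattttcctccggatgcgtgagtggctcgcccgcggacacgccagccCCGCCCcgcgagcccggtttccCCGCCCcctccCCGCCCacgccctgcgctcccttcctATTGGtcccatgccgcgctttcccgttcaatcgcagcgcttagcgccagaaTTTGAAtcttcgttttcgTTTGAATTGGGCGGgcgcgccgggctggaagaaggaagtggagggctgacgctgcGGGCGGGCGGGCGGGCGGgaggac
CENPA, plus strand, chr2:26785806-26786105: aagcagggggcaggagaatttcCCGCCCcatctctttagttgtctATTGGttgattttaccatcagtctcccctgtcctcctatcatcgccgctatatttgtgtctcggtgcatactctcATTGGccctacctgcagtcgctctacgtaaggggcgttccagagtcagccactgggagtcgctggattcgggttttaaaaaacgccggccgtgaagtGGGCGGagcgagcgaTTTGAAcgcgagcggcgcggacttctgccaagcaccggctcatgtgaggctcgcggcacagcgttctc
PTTG1, plus strand, chr5:160421605-160421904: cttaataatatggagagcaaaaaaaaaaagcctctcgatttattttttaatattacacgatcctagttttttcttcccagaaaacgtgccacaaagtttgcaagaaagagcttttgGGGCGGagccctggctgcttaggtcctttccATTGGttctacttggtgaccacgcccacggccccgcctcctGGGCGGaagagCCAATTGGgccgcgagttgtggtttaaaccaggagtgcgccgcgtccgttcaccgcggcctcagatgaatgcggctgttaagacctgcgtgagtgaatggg
PLK1, plus strand, chr16:23678639-23678938: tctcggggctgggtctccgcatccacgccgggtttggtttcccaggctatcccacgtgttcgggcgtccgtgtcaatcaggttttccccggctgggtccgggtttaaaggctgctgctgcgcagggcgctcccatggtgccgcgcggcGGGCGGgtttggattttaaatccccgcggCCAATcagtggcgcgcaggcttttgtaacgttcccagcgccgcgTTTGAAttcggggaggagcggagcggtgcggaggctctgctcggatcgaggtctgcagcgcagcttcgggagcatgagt
CDC25C upstream start, minus strand, chr5:138338306-138338605: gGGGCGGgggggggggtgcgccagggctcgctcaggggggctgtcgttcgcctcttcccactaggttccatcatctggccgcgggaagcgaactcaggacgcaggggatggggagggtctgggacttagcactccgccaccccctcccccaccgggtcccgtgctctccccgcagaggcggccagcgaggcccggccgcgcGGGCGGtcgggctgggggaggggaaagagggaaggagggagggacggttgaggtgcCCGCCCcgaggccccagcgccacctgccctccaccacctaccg
CDC25C internal start, minus strand, chr5:138331828-138332127: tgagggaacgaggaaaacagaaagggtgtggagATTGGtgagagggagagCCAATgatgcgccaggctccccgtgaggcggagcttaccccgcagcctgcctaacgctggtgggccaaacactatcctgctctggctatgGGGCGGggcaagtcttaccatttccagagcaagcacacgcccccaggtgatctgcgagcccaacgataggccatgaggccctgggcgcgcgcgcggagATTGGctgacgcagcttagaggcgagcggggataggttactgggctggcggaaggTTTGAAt

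The CHR lay close to the start in the windows that held it. In PLK1 and in MKI67 it began 29 bases upstream of the start, in MKI67 again 47 bases upstream, in CENPA 18 bases upstream, and at the internal start of CDC25C 43 bases downstream. The CCAAT box, which NF-Y binds, began 73 bases upstream in PLK1, and at 3 places in the internal CDC25C window. The upstream CDC25C window held the GC box alone, 3 times, and the PTTG1 window had CCAAT and GC boxes with no CHR in these letters. The MKI67 peaks lie almost wholly downstream of the window printed, and the CENPA peak of repeat 2 wholly so. The repeat 1 peaks at the CENPA and PTTG1 starts lie mostly downstream of their windows. For these 3 genes most of the bound region is therefore not among the letters shown, and the PLK1 peak also runs past its window.

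Over the 29 genes with a window, taking the most upstream start of each, the CHR was found in 18, which is 62.1%, against 12.5% of 16199 genes with a window. The CCAAT box was in 23, 79.3% against 36.3%, and the GC box, which Sp1 binds, in 23, 79.3% against 56.0%. CCAAT box and CHR occurred together in 16, 55.2% against 5.099%, and these letters are part of how such promoters are known, so this describes the set. The CHR was in 13 of the 20 genes with any ChIP peak within 1 kb of a RefSeq start in repeat 1, whatever gene it was assigned to, and in 5 of the 9 without, and the CCAAT box in 16 of 20 and 7 of 9. The GC box was in 18 of 20 and 5 of 9.

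**Figure D2:**
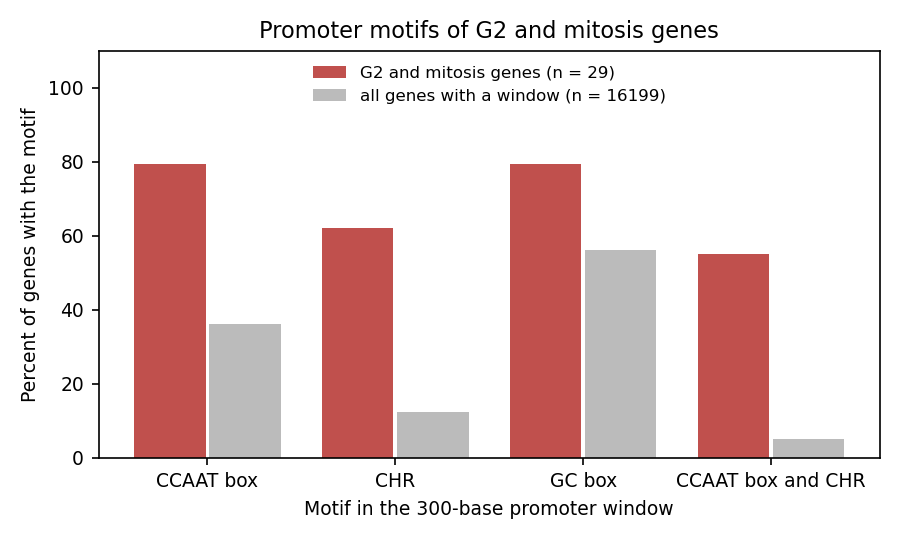
Percent of genes (y axis) whose 300-base promoter window holds each motif (x axis), for the 29 G2 and mitosis genes with a window and all 16199 genes with one. The CHR stands at 62.1% against 12.5% and the CCAAT box with the CHR at 55.2% against 5.099%, while the GC box is common in both, at 79.3% and 56.0%.

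The set took a small and similar share of the run-on counts in every group. The share was 0.250%, 0.136% and 0.179% in WT repeats 1, 2 and 3 with NTP, a mean of 0.189% ± 0.0578 (SD, n = 3). In libraries labelled hNABP2 KO with NTP it was 0.368%, 0.0760% and 0.191%, a mean of 0.211% ± 0.147 (SD, n = 3), and in those labelled hNABP1 KO 0.316%, 0.0662% and 0.132%, a mean of 0.171% ± 0.129 (SD, n = 3). The groups overlapped and their means differed by less than their SDs. Without repeat 1 the mean fell to 0.133% in hNABP2 KO and to 0.0993% in hNABP1 KO. In all 6 groups repeat 1 had the highest share and repeat 2 the lowest, and repeat 2 held only 4 to 11 counts of the set in a library. Exact 95% Poisson intervals, which cover counting error only, ran from 0.160% to 0.201% in WT repeat 3 and from 0.0587% to 0.268% in WT repeat 2.

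Within repeats, the ratio of the share labelled hNABP2 KO to the WT share was 1.47, 0.559 and 1.06, so its direction differed among repeats. For hNABP1 KO against WT it was 1.26, 0.487 and 0.738, again of mixed direction. For hNABP2 KO against hNABP1 KO it was 1.17, 1.15 and 1.44, above 1 in all 3 repeats. In repeat 2 both libraries held 5 counts of the set, so 1.15 reflects only their totals, 6581 and 7553. Of all genes with a count in either library, 56.9%, 54.6% and 61.4% also stood higher in hNABP2 KO, by repeat. In the deepest repeat, WT had 295 counts of the set, hNABP2 KO 221 and hNABP1 KO 153, and 8 of 35 genes stood higher in hNABP1 KO than in WT by CPM (counts scaled to a library total of 1000000), against 30.9% of all genes with a count in either library.

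**Figure D3:**
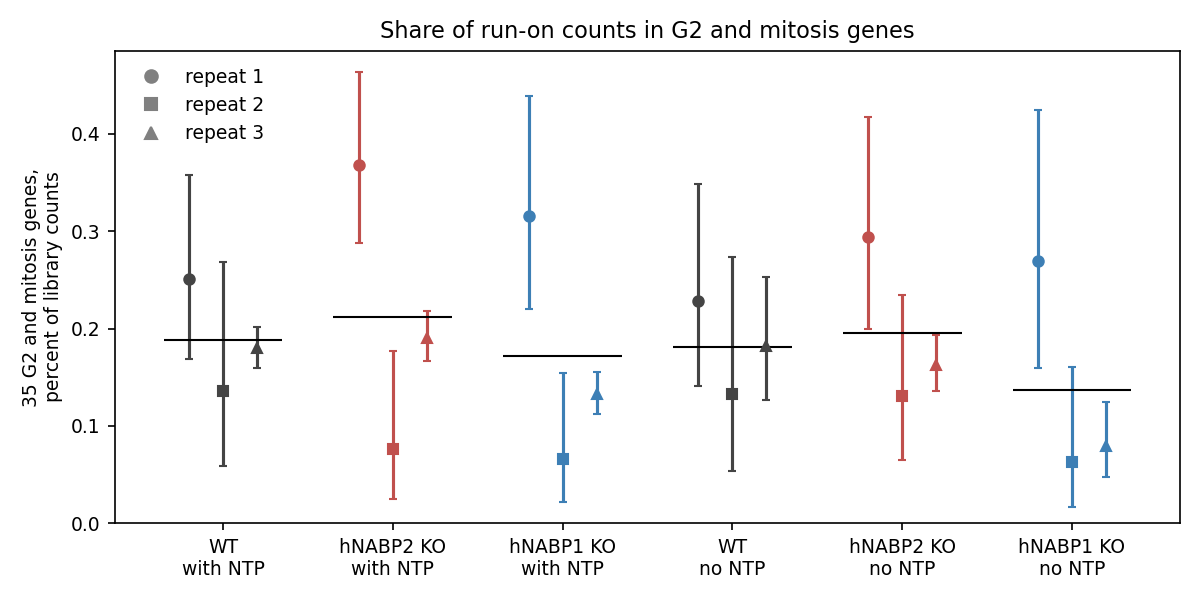
Share of each run-on library's counts in the 35 genes (y axis, percent) by group (x axis), with a marker for each repeat, its exact 95% Poisson interval and a line at the group mean. Repeat 1 is highest and repeat 2 lowest in each group, and the groups with NTP, with means of 0.189%, 0.211% and 0.171%, overlap.

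No gene of the set passed the test in any of the 3 comparisons of genotypes with NTP (edgeR's quasi-likelihood test, Benjamini-Hochberg adjusted p under 0.05). In each, 0 of 33 genes tested were called, where 0% of all 13447 genes were called, and DESeq2 and limma voom called 0 as well. At an unadjusted p under 0.05 the set had 0 genes in each, where 0.305% of all genes lay under it for hNABP2 KO against WT, 1.21% for hNABP1 KO against WT and 1.84% for hNABP2 KO against hNABP1 KO. The median log2 fold change of the set for hNABP2 KO against WT was 0.23 against 0.071 over all genes, with 22 of 33 above 0, against 53.8% of all genes. It was -0.12 against -0.032 for hNABP1 KO against WT, with 13 above 0, against 48.8%. For hNABP2 KO against hNABP1 KO it was 0.44 against 0.12, with 25 above 0, against 54.7%. Leaving out single libraries took the first from -0.22 without hNABP2 KO repeat 3 to 0.87 without WT repeat 3, and the second from -1.54 without hNABP1 KO repeat 3 to 0.50 without WT repeat 3. With library totals in place of TMM scaling all genes shifted down, to medians of -0.065 and -0.40 against WT, with 47.0% and 34.9% above 0. The set shifted with them, to 0.13 with 18 of 33 above 0 and to -0.41 with 6 above 0. With limma voom the set's median for hNABP1 KO against WT was 0.023, as over all genes, with 20 of 33 above 0, against 54.0% of all genes. With the repeat number as a block, 16 genes were called for hNABP1 KO against WT and 19 for hNABP2 KO against hNABP1 KO, which is 0.119% and 0.141% of all genes, none of them in the set, and 0 and 0 once repeat 3 of hNABP1 KO was left out. At an unadjusted p under 0.05 the block gave 2 of 33 genes of the set for hNABP2 KO against WT, ANLN and KIF4A, against 0.833% of all genes, 0 for hNABP1 KO against WT, against 5.04%, and 0 for hNABP2 KO against hNABP1 KO, against 5.14%.

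Of the genes for mitotic entry, CDC25C had the most counts of the set, 81 over the 9 libraries with NTP. It had 5, 0 and 27 counts in WT repeats 1, 2 and 3, 10, 0 and 16 in those labelled hNABP2 KO and 7, 0 and 16 in those labelled hNABP1 KO. Repeat 2 was empty in each group, so the groups overlapped. The log2 fold change was 0.35 ± 1.25 (SE) for hNABP2 KO against WT and 0.39 ± 1.25 for hNABP1 KO against WT, with adjusted p of 1.00 and 0.999 by edgeR's quasi-likelihood test, and its sign turned when single libraries were left out. CDC25B had 2, 1 and 17 counts in WT, 3, 1 and 11 in hNABP2 KO and 1, 0 and 12 in hNABP1 KO, which also overlap. The cyclins CCNB1, CCNA2 and CCNB2 had 20, 20 and 10 counts over the 9 libraries, and CDK1, the kinase they activate, had 18.

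The kinases were thinly covered, with 75 counts over 5 genes. PLK1 had 0, 0 and 9 counts in WT, 1, 0 and 8 in hNABP2 KO and 1, 0 and 4 in hNABP1 KO, with nearly all of them in repeat 3. AURKB, the Aurora kinase of the chromosomal passenger complex, had 20 counts over the 9 libraries with NTP, AURKA, that of the spindle poles, 12, TTK 11 and NEK2, a centrosome kinase, 9.

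Of the checkpoint and anaphase genes, BUB3 had 1, 0 and 17 counts in WT, 1, 0 and 13 in hNABP2 KO and 2, 0 and 7 in hNABP1 KO. CDC20, the activator that the checkpoint restrains, had 1, 2 and 10 counts in WT, 3, 1 and 13 in hNABP2 KO and 0, 2 and 8 in hNABP1 KO. BUB1B, which encodes the checkpoint protein BubR1, had 0, 0 and 12 counts in WT, 5, 0 and 5 in hNABP2 KO and 1, 0 and 2 in hNABP1 KO. All 3 overlapped between groups, because repeats 1 and 2 ranged from 0 to 5 counts. In repeat 3 the 6 genes together stood at 371 CPM in WT, 336 in hNABP2 KO and 225 in hNABP1 KO, single libraries for which no test was made.

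The kinesins had 89 counts over 5 genes, of which KIF23 had 0, 0 and 12 in WT, 1, 0 and 12 in hNABP2 KO and 0, 0 and 5 in hNABP1 KO. KIF4A, a chromosome-bound kinesin, had 1, 0 and 0 counts in WT, 2, 0 and 7 in hNABP2 KO and 0, 0 and 5 in hNABP1 KO. Its log2 fold change for hNABP2 KO against WT with the repeat block was 2.98 ± 1.50 (SE), with an unadjusted p of 0.046 and an adjusted p of 1.00 by edgeR's quasi-likelihood test, on 1 count in WT. CENPF, a large kinetochore protein, had 1, 0 and 10 counts in WT, 2, 0 and 7 in hNABP2 KO and 2, 0 and 2 in hNABP1 KO. The 3 centromere genes CENPA, CENPE and CENPF together stood at 146, 164 and 51.9 CPM in repeat 3 of WT, hNABP2 KO and hNABP1 KO, on 24, 19 and 6 counts. Over all genes the median in these libraries was 24.3, 25.9 and 8.66 CPM.

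ANLN had 4, 0 and 6 counts in WT, 11, 0 and 16 in hNABP2 KO and 4, 0 and 9 in hNABP1 KO. Its libraries labelled hNABP2 KO were the highest in repeats 1 and 3, and all groups met at 0 in repeat 2. The log2 fold change was 1.41 ± 1.34 (SE) for hNABP2 KO against WT, with an adjusted p of 1.00 by edgeR's quasi-likelihood test, and 0.56 ± 1.37 for hNABP1 KO against WT, with 0.999. With the repeat block the first was 1.61 ± 0.79 (SE), with an unadjusted p of 0.043 and an adjusted p of 1.00 by the same test. ECT2, the exchange factor that activates RhoA at the cleavage furrow, had 0, 0 and 12 counts in WT, 1, 0 and 11 in hNABP2 KO and 0, 0 and 7 in hNABP1 KO. TPX2, which activates AURKA on the spindle, had 1, 0 and 15 counts in WT, 2, 0 and 8 in hNABP2 KO and 3, 0 and 2 in hNABP1 KO. Both overlapped between groups.

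FOXM1, the transcription factor that switches on many genes of this set, had counts in all 9 libraries with NTP, with 1, 3 and 8 counts in WT, 1, 2 and 6 in hNABP2 KO and 3, 3 and 3 in hNABP1 KO. Its span overlaps RHNO1 on the genome, which had 7, 6 and 1 counts in the same groups. PRC1, which bundles microtubules of the central spindle, had 2, 0 and 10 counts in WT, 2, 0 and 7 in hNABP2 KO and 0, 0 and 6 in hNABP1 KO. The antisense RNA PRC1-AS1 had 85 counts in repeats 1 and 2 and 25 in repeat 3 over all 18 libraries, the reverse of PRC1, and because no source used here states the strand setting of the counting the 2 cannot be separated with certainty. Another gene overlaps the span of 18 of the 35 genes.

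MKI67 had 2, 1 and 9 counts in WT, 1, 0 and 5 in hNABP2 KO and 4, 0 and 0 in hNABP1 KO. In CPM these are 167, 170 and 54.8 in WT and 51.1, 0 and 43.1 in hNABP2 KO. Here the WT libraries lay above those labelled hNABP2 KO without overlap, on 0 to 2 counts in repeats 1 and 2. The gap is that between 54.8 in WT repeat 3 and 51.1 in hNABP2 KO repeat 1, which is 1 count. MKI67 was the 1 of 33 genes without overlap, against 2.07% of all genes, and it did not pass the test. With no NTP, MKI67 had 0, 0 and 5 counts in WT and 6, 0 and 2 in hNABP2 KO. The mean CPM with no NTP was 86.6 in WT and 198 in hNABP2 KO, the reverse order of 131 and 31.4 with NTP. No gene of the set was without overlap between hNABP1 KO and WT, against 2.03% of all genes, or between hNABP2 KO and hNABP1 KO, against 2.71%.

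**Figure D4:**
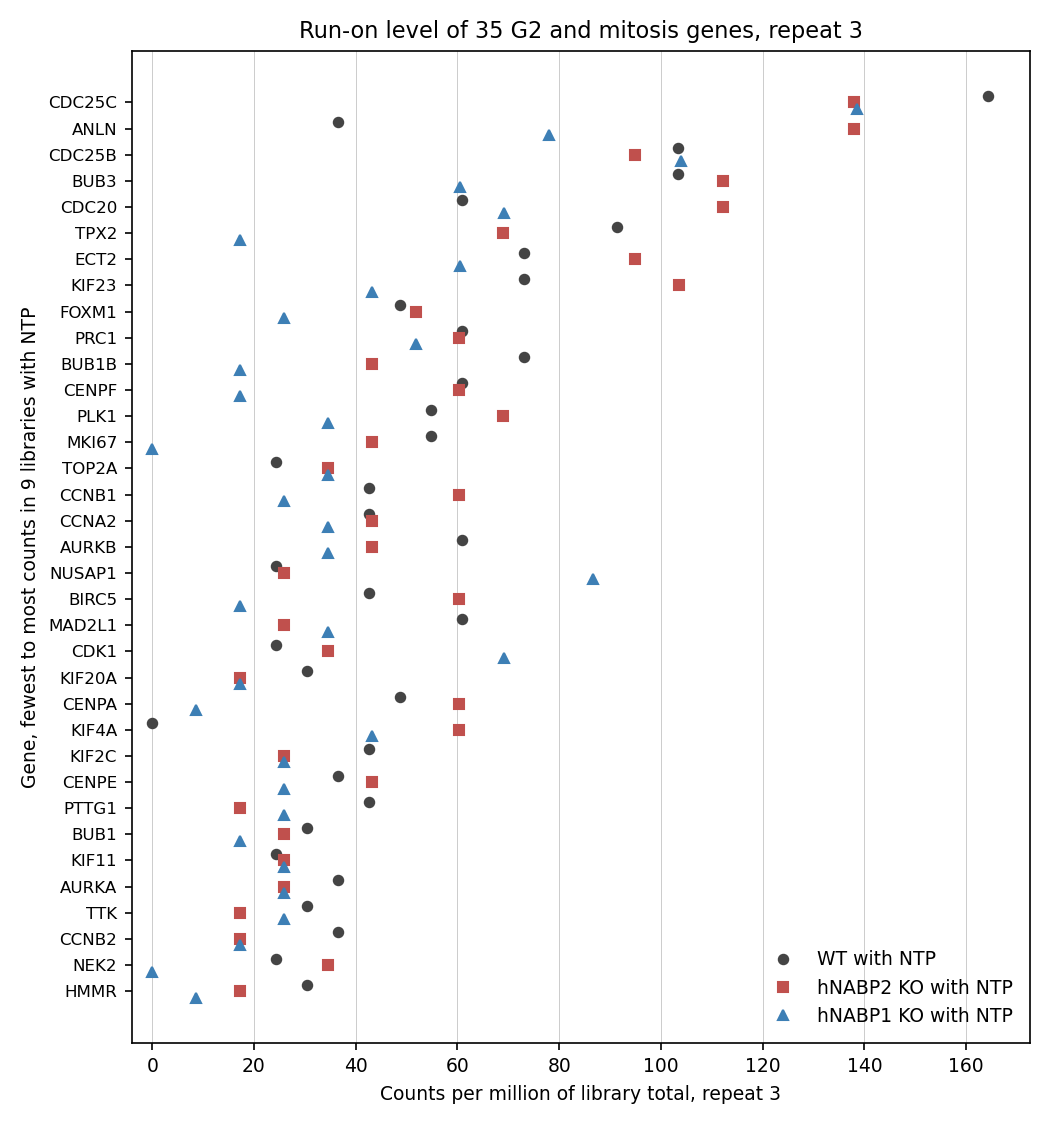
CPM (x axis) of each of the 35 genes (y axis, ordered by counts) in repeat 3 with NTP, the deepest repeat, with 1 library a group and no error bar. CDC25C is highest in WT, ANLN is higher in the libraries labelled hNABP2 KO and hNABP1 KO than in WT, and most genes stand on fewer than 10 counts a library.

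Per kb of gene span in WT repeat 3 with NTP, CDC20 stood highest at 14.4 CPM per kb, followed by AURKB at 10.4, BUB3 at 6.44 and PTTG1 at 6.18, all of them short genes. At the low end were NUSAP1 at 0.51, the long genes KIF11 and CENPE at 0.39 each, and KIF4A at 0. On these counts neighbours in the order cannot be told apart, since BUB3 rests on 17 counts and PTTG1 on 7.

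Libraries with no NTP show the background of the run-on pull-down, and the set stood at nearly the same share in them. The mean was 0.181% ± 0.0475 (SD, n = 3) in WT, 0.196% ± 0.0865 in hNABP2 KO and 0.137% ± 0.114 in hNABP1 KO. Within repeats the share with NTP over that with no NTP was 1.10, 1.02 and 0.987 in WT, 1.25, 0.580 and 1.17 in hNABP2 KO, and 1.17, 1.05 and 1.66 in hNABP1 KO. These are shares of each library's own total, so they do not show whether the level of all genes, and the set with them, rose with NTP. The set had 824 counts in the 9 libraries with NTP and 275 in the 9 with no NTP, and in WT repeat 3 it had 295 of 164357 counts with NTP and 35 of 19247 with none. Without repeat 1 the mean with no NTP in hNABP1 KO fell to 0.0712%.

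With NTP against no NTP, 0 of 35 genes of the set passed the threshold in any genotype, where 0% of 14907 genes passed (edgeR's quasi-likelihood test, adjusted p under 0.05). At an unadjusted p under 0.05 the set had 0 genes in WT, where 1.09% of all genes lay under it, 0 in hNABP2 KO, where 2.41% did, and 3 in hNABP1 KO, where 6.22% did. Those 3 were CDK1, CDC20 and ANLN, which were at 0 in all 3 hNABP1 KO libraries with no NTP and had 10, 10 and 13 counts with NTP. A count of 0 was taken to allow up to 3 counts, which is 81.2 CPM on a total of 36934. On a total of 134172 with NTP, CDK1 and CDC20 stood at 74.5 CPM each, below that bound, and ANLN at 96.9, above it. No fold is given against a count of 0. The median log2 fold change of the set was 0.59 in WT against 0.93 over all genes, 0.43 in hNABP2 KO against 0.17, and 1.56 in hNABP1 KO against 1.70. In WT it was 0 without repeat 3 with NTP and 2.50 without repeat 3 with no NTP. In hNABP2 KO it was -0.013 without repeat 1 with NTP and 1.64 without repeat 3 with no NTP, and in hNABP1 KO 0 without repeat 3 with NTP and 2.42 without repeat 1 with no NTP. The difference of the NTP effect between each KO and WT passed for 0 of 35 genes and 0% of all, and at an unadjusted p under 0.05 for 0 of the set, against 1.66% of all genes for hNABP2 KO and 2.45% for hNABP1 KO. With the repeat block 1 gene outside the set was called for NTP in hNABP1 KO, 0.00671% of all. At an unadjusted p under 0.05 the block gave 0 genes of the set for NTP in WT, against 2.54% of all, 1 in hNABP2 KO, ANLN, against 2.62%, and 4 in hNABP1 KO, CDC20, CDK1, BUB3 and ANLN, against 11.8%. For the difference of the NTP effect it gave 2, CDK1 and ANLN, for hNABP1 KO, against 4.41%, and 0 for hNABP2 KO, against 2.58%, and all of these had adjusted p of 0.295 or more by edgeR's quasi-likelihood test.

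Run-on peaks overlapped the span of 0 or 1 of the 35 genes in 8 of the 9 libraries with NTP, and of 10 in repeat 3 of hNABP1 KO, 28.6%, against 26.6% of all genes in that library. That library held 9965 peaks and the others 94 to 518. The set had no gene with a peak in WT repeats 1 and 3, against 0.261% and 0.981% of all genes, or in hNABP2 KO repeats 1 and 2, against 0.564% and 1.17%. In repeat 3 of hNABP1 KO, peaks lay at CDC25C, BUB1, BUB3, MAD2L1, KIF2C, CENPA, MKI67, PTTG1, NUSAP1 and HMMR. Those at CDC25C (the upstream region), BUB3, CENPA, MKI67, PTTG1 and NUSAP1 overlapped an anti-hNABP2 peak. At NUSAP1 that was the peak given to OIP5, not its own, and at CDC25C one given to FAM53C. The NUSAP1 run-on peak, at chr15:41332325-41332881, reached only the first base of the NUSAP1 span and also lay over OIP5. The upstream CDC25C peak also lay over FAM53C, and the MAD2L1 peak over MAD2L1-DT. In the other libraries single peaks lay at KIF11 in WT repeat 2, against 0.737% of all genes, at ECT2 in hNABP2 KO repeat 3, against 0.227%, at FOXM1 in hNABP1 KO repeat 1, against 1.61%, and at CENPA in hNABP1 KO repeat 2, against 1.50%. CENPA was thereby the gene of the set with a run-on peak in more than 1 library, with folds of 4.90 and 3.64 in repeats 2 and 3 of hNABP1 KO. The FOXM1 peak also lay over RHNO1.

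The run-on peak with the highest fold at a gene of the set lay at the internal start of CDC25C, 6478 bases downstream of the upstream start, at chr5:138331790-138332131. It had a fold of 31.2 and a −log10 q of 73.1 in hNABP1 KO repeat 3 and also covers the start of the lncRNA LOC100128966, read in the other direction. The one DRIP peak at any gene of the set lay at the same place, at chr5:138331775-138331947, with a fold of 4.79 in hNABP2 KO repeat 2, against 0.324% of all genes with a DRIP peak in that library. There was none in hNABP2 KO repeat 1, which had 13 peaks in all at 0.0379% of genes, or in WT repeats 1 and 2, where 0.358% and 0.307% of genes had one, so it rests on 1 library. No anti-hNABP2 peak overlapped the internal start, whose window, printed above, holds the CHR and 3 CCAAT boxes, while the ChIP peaks lay at the upstream start, which holds neither. A weaker run-on peak of hNABP1 KO repeat 3 also lay in the upstream region, at chr5:138337747-138338014. It had a fold of 6.68 and overlapped an anti-hNABP2 peak of repeat 1.

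**Figure D5:**
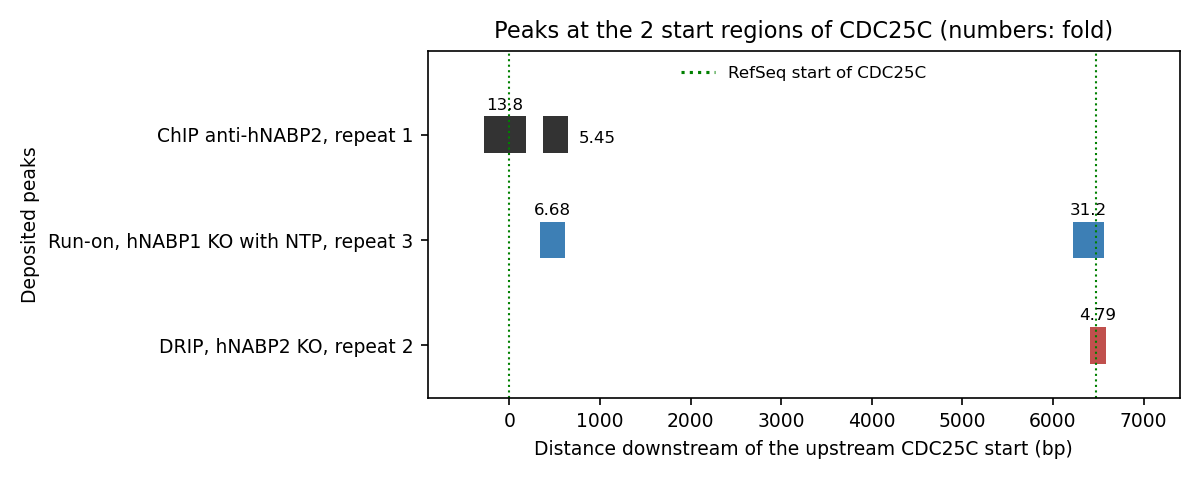
Deposited peaks at CDC25C by distance downstream of its upstream start (x axis, bp) in 3 libraries (y axis), with the fold of each as a number and dotted lines at the 2 RefSeq starts. The ChIP peaks, with folds of 13.8 and 5.45, lie at the upstream start, as does a run-on peak of 6.68. The run-on peak of 31.2 and the DRIP peak of 4.79 lie at the internal start 6478 bases away.

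Other genes of the same machinery were read on 5 lists beside the set. These covered kinetochore and centromere, anaphase promoting complex, condensin and cohesin, spindle and cytokinesis, and regulators such as MuvB and the entry kinases. In the comparisons of genotypes without the repeat block, 0 genes of these lists passed the test. With the repeat number as a block, UBE2S of the anaphase list was among the genes called for hNABP1 KO against WT, 0.119% of all. UBE2S and the condensin gene NCAPH were among those called for hNABP2 KO against hNABP1 KO, 0.141% of all. The block called 0 genes in either comparison once repeat 3 of hNABP1 KO was left out. Without the block, the median log2 fold changes of the 5 lists for hNABP2 KO against WT were 0.24, 0.030, 0.18, 0.13 and 0.26, beside 0.23 for the 35 genes. For hNABP1 KO against WT they were 0.43, 0.20, 0.16, 0.29 and 0.15, beside -0.12 for the 35 genes and -0.032 over all genes. The difference between the lists and the set was not tested, and the set's own median ran from -1.54 to 0.50 with single libraries left out. Library totals in place of TMM took the median of all genes to -0.40, a larger shift than 4 of these 5 medians. The spindle list includes NUF2 and UBE2C, which other lists hold too.

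Promoter peaks in repeat 1 were found at 17 of 36 kinetochore genes, 13 of 20 genes of the anaphase promoting complex, 17 of 23 of condensin and cohesin, 25 of 44 spindle genes and 23 of 34 regulators, against the 27.1% of all genes. Among genes with 10 or more run-on counts with NTP they were at 14 of 30, 12 of 19, 17 of 21, 24 of 43 and 21 of 31, against 49.9% of all, so the kinetochore list at 46.7% and the spindle list at 55.8% stood near the background. In both repeats they were at 0, 2, 3, 4 and 6 genes of these lists, against 7.46%. Among these were CDC16, a subunit of the anaphase promoting complex, with folds of 3.958 and 5.195, and FZR1, its late mitotic activator, with 2.796 and 7.436. The cohesin subunit STAG1 had 4.691 and 6.901, the cohesin regulators PDS5A and PDS5B 4.35 and 5.28 and 3.34 and 10.3. NFYB, a subunit of the CCAAT-binding factor NF-Y, had 4.10 and 4.33, ARPP19, an inhibitor of the phosphatase that opposes CDK1, 3.96 and 7.14, and WEE1, the kinase that holds CDK1 inactive, 3.46 and 4.68. CKS2, a CDK1-binding protein, had 3.08 and 6.95, TUBGCP2, a gamma-tubulin complex protein, 3.25 and 4.45, and CKAP5, a microtubule polymerase, 2.41 and 7.21. For comparison, 14 of 19 mesenchymal markers had a peak in repeat 1, 4 of 12 epithelial and 0 of 12 leukocyte markers.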

How the data were processed

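Run-on counts per gene were deposited as raw counts by the authors for 18 libraries, per the table's whole-number values. Anti-hNABP2 ChIP, run-on and DRIP peaks were deposited with a fold enrichment and −log10 p and q values as the authors' peak caller wrote them, library by library. Cutadapt 1.18, Bowtie2 2.3.5, SAMtools, MACS2 2.2.1 and hg38 are named, per the submitters' processing notes; no source used here states the counter, its strand setting or the peak control.

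From these files, genes with 10 or more counts over the libraries compared were fitted with edgeR 4.0.16 (TMM, quasi-likelihood test, Benjamini-Hochberg threshold 0.05): 9 libraries with NTP for genotypes, all 18 for NTP. DESeq2 1.42.0, limma 3.58.1, other filters, the repeat block and leaving out each library were tried. The fit was also run on simulated data whose spread was fixed, not estimated from these libraries. That run does not show which changes these libraries could detect. Deviations of same-numbered libraries from their group means correlated at 0.251 to 0.503 in 9 pairs, and others at -0.311 to 0.0224. Depth also went with the repeat number, so these correlations cannot tell paired samples from libraries of like depth. Whether the repeat numbers pair the samples was not tested. The spread between libraries, not the number of counts alone, sets these tests, and 5272 to 164357 counts per library give wide Poisson intervals for single genes. A promoter peak is one the authors annotated within 1 kb of a start, and spans overlap by at least 1 base. Values are given for genes with the most counts or with promoter peaks, the highest and lowest in fold. The genes, the lists and this rule were chosen with earlier results of these data known. The standard error of a log2 fold change was taken as its size over the square root of the quasi-likelihood F statistic, which is unstable where the fold change is near 0, and none is printed for such a gene.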

Additional observations from a re-analysis of the deposited data

How the results depend on the processing

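In 110 alternative fits over the 8 contrasts in which genes of the set could be tested, 0 placed one past the threshold, and with edgeR's own expression filter none of the set was left to test. The repeat block called 16 genes for hNABP1 KO against WT, 19 for hNABP2 KO against hNABP1 KO and 1 for NTP in hNABP1 KO, and changed no call in the set at the adjusted threshold. Single left-out libraries moved the median log2 fold change of the set, from -0.22 to 0.87 for hNABP2 KO against WT, from -1.54 to 0.50 for hNABP1 KO against WT, from 0.025 to 1.59 for hNABP2 KO against hNABP1 KO, and with NTP from 0 to 2.50 in WT, from -0.013 to 1.64 in hNABP2 KO and from 0 to 2.42 in hNABP1 KO. The median for NTP in WT was 1.07 with DESeq2, 0.81 with no filter beyond 1 count and 0.86 with the repeat block, and that in hNABP1 KO was 1.183 with the block; the cause was not tested. In alternatives chosen after seeing the data, leaving out repeat 3 in all groups gave medians of 0.36 for NTP in WT and -0.032 for hNABP2 KO against hNABP1 KO over the few genes still tested, and the block without repeat 3 of hNABP1 KO gave -1.14 for hNABP1 KO against WT and 1.28 for hNABP2 KO against hNABP1 KO. For hNABP2 KO against hNABP1 KO the lowest came without hNABP1 KO repeat 2. The log2 fold change of CDC25C ran from -0.68 to 0.80 in hNABP2 KO and from -0.39 to 0.88 in hNABP1 KO with single libraries left out, below 0 without repeat 1 of the same KO, at -0.68 and -0.39, or without WT repeat 2, at -0.21 and -0.15. That of ANLN in hNABP1 KO ran from -0.18, without hNABP1 KO repeat 1, to 1.85, and was -0.057 without repeat 3 of all groups. Without RNA45S5 and RNA28S5 in the totals the share of the set was 0.148% to 0.218% by group. With single libraries left out it ran from 0.133% to 0.279% in hNABP2 KO with NTP, from 0.0993% to 0.224% in hNABP1 KO with NTP and from 0.0712% to 0.174% in hNABP1 KO with no NTP, lowest without repeat 1 in each. At a −log10 q of 5 or more, 20 genes had a promoter peak in repeat 1 and 1, MKI67, in repeat 2 and in both. With 2 kb added to each span, hNABP2 KO repeat 1 had 1 gene with a run-on peak and hNABP1 KO repeat 3 had 14. Depth limits most run-on values, since repeats 1 and 2 held 4 to 72 counts of the set in a library.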
